A study of Mus musculus with 6 samples.

Results

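The acute-phase and antimicrobial secreted proteins were followed as 10 genes chosen by symbol, namely the serum amyloids *Saa1*, *Saa2* and *Saa3*, *Lcn2*, *Hp*, *Orm1*, *Ptx3*, the lysozymes *Lyz1* and *Lyz2*, and *Slpi*. All 10 symbols were present among the 56748 genes of the count table, and all 10 were among the 17146 genes that passed the filter on low counts. RNA sequencing had been performed on primary osteocytes, the cells embedded in bone matrix, taken from the long bones of mice 7 weeks old and cultured for 7 days. All cells of both genotypes had received lipopolysaccharide (LPS) at 10 ng/mL for 3 h and then aluminum hydroxide at 20 µg/mL for 3 h, a treatment meant to trigger pyroptosis, so no value below measures induction from rest. The 3 control libraries came from wild-type (WT, C57BL/6) cells, and the other 3 were labelled cKO for *Gsdmd* fl/fl; DMP1-Cre, in which the *Dmp1* promoter drives Cre and removes floxed *Gsdmd*, the gene of the pore-forming protein gasdermin D. The sources do not state that the WT mice carried the floxed alleles or Cre, nor that replicates came from separate mice or cultures, so the p-values measure only the spread between these libraries.

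*Gsdmd* itself went against the label. Its counts were 609, 699 and 549 in WT and 885, 937 and 1045 in the libraries labelled cKO, a log2 fold change of 0.69 (SE 0.0827; adjusted p = 2.27e-06, edgeR). These counts cover the whole gene, and the sources used here do not say which exons are floxed, so they do not measure the deletion. The groups also differed in sex-linked transcripts. *Xist* counts lay between 0 and 4 per WT library and between 44817 and 51216 per library labelled cKO, while the 4 Y-linked genes examined had 0 counts in every library labelled cKO, so that genotype and sex cannot be told apart in any comparison below. Library totals ranged from 39566835 to 49734046 counts, and the median log2 fold change over all tested genes was 0.0077. The defining osteocyte markers *Sost*, *Dmp1* and *Mepe* were at or near 0 in both groups, with 0, 0 to 6 and 0 to 2 counts per library.

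Acute-phase proteins are secreted in greater amounts when cytokines such as interleukin-6, interleukin-1 and tumor necrosis factor signal tissue injury or infection. The liver is their best known source, but macrophages, fibroblasts and adipocytes also make several of them locally. The serum amyloids bind lipids and attract leukocytes, lipocalin-2 withholds iron from bacteria by binding their siderophores, haptoglobin captures free hemoglobin, orosomucoid carries small lipophilic molecules, and pentraxin 3 is a soluble pattern recognition molecule. Lysozymes cleave the peptidoglycan of bacterial walls, and *Slpi* encodes a secreted inhibitor of neutrophil serine proteases. C/EBP factors and NF-κB are known regulators of several of these genes.

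The sequence upstream of the gene start was examined in RefSeq's promoter table (GRCm38.p6), which held 8 of the 10 genes. *Hp* and *Orm1* had no entry. Both pairs of near-identical genes, *Saa1* with *Saa2* and *Lyz1* with *Lyz2*, are printed here with *Saa3*, to show how the closest relatives differ. *Lcn2*, the gene with an ETS match, is printed as well. Each sequence is the 250 bases before the start, 5′ to 3′ on the strand of the gene, and capitals mark a match to a C/EBP site or, in *Lcn2*, also to an ETS site.
*Saa1*, chr7:46742981-46743230, minus strand: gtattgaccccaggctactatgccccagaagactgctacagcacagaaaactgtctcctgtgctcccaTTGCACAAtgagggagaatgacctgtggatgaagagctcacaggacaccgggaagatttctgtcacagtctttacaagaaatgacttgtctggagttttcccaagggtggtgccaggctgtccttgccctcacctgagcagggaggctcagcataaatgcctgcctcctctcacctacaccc
*Saa2*, chr7:46751583-46751832, plus strand: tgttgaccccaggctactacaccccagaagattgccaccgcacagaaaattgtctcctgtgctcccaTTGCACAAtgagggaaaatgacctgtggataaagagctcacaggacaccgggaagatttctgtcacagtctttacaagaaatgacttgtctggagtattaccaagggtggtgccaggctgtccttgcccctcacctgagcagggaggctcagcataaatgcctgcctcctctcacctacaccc
*Saa3*, chr7:46715677-46715926, minus strand: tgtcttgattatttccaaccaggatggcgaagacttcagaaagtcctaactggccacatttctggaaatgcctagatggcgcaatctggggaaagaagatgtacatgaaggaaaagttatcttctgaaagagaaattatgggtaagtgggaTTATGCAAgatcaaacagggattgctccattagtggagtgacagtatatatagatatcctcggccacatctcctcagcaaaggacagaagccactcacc
*Lcn2*, chr2:32387740-32387989, minus strand: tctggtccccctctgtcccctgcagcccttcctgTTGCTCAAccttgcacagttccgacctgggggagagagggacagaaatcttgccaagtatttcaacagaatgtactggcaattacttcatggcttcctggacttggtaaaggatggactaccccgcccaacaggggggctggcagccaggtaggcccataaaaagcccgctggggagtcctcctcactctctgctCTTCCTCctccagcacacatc
*Lyz1*, chr10:117292869-117293118, minus strand: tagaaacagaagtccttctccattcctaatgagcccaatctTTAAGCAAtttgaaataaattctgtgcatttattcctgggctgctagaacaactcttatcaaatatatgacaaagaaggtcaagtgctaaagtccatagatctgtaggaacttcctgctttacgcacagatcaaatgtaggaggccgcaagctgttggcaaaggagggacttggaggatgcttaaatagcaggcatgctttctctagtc
*Lyz2*, chr10:117282273-117282522, minus strand: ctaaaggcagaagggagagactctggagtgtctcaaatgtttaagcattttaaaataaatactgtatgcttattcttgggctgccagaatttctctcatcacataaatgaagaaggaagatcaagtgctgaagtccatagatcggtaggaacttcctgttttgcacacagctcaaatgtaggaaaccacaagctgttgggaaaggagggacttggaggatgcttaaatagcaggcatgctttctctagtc

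The letters TTGCNNAA of a C/EBP site, read on both strands, occurred in 7 of the 8 sequences, in all but *Lyz2*, and in 9.56% of the 32851 promoters of the table. The match lay at -182 to -175 from the start in *Saa1*, at -183 to -176 in *Saa2*, at -99 to -92 in *Saa3* and at -57 to -50 in *Ptx3*. The ETS letters GAGGAAG occurred in 1 of the 8, *Lcn2*, and in 10.6% of all promoters. None of the 8 held the 10-letter κB consensus (3.9% of all promoters), the STAT letters TTCNNNGAA (7.02%), the AP-1 letters TGANTCA (6.75%) or TATAAA (12.4%). Over these windows *Saa1* and *Saa2* were identical at 95.6% of 249 aligned bases, and *Lyz1* and *Lyz2* at 80.6% of 248.

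The counts differed under another definition of the start. The motifs were searched first before the start of the GENCODE canonical transcript on GRCm39, which covered all 10 genes, and that definition was replaced by the RefSeq table after its counts had been seen. With it, C/EBP letters occurred in 7 of 10 genes (9.34% of 21757 promoters), without *Saa3*, *Hp* and *Lyz2*, and in 6 of the 8 genes of the RefSeq table. The κB consensus then occurred in 2 genes, *Lcn2* and *Ptx3* (4.23% of promoters), ETS letters in 3, *Saa1*, *Saa2* and *Saa3* (10.3%), AP-1 letters in 1, *Orm1* (6.18%), which the RefSeq table does not hold, and STAT and TATAAA letters again in 0. Over the same 8 genes the κB count thus went from 0 to 2 and the ETS count from 1 to 3, while AP-1 stayed at 0, and the start and the genome build changed together in this comparison. The canonical start lay 143 bases from the start of the deposited gene in *Saa1*, 452 in *Saa3*, 455 in *Lcn2* and 32588 in *Slpi*, and at most 45 in the other 6 genes. These are not distances between the RefSeq and the canonical start, which were not measured. A match in letters does not show binding.

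All 10 genes were higher in the libraries labelled cKO than in WT at an adjusted p below 0.05 (edgeR quasi-likelihood test), and 0 were lower, also at an unadjusted p below 0.05 and by DESeq2 and limma-voom. Of all tested genes 20.1% were called higher and 19.2% lower. For each of the 10, every library labelled cKO lay above every WT library, as it did for 25.3% of all tested genes, and none lay wholly below, as 23.9% did. The call of higher together with a log2 fold change of at least 1 was met by 5 of the 10 (*Saa1*, *Saa2*, *Orm1*, *Lyz1* and *Lyz2*) and by 6.56% of all tested genes, and the opposite call by 0 of the 10 and 4.64% of all tested genes. The median log2 fold change of the 10 was 1.06. *Orm1* and *Lyz1* passed the filter on low counts only through the libraries labelled cKO. Given their few WT counts, a large rise was thus a condition of their being tested. Both enter the counts out of 10, the 5 with the larger change and the median. Of the 5, *Saa1*, *Saa2* and *Lyz2* do not depend on that condition. When 10 or more counts were required in each of the 6 libraries, the remaining 8 of 8 were higher, against 21.4% of all genes so kept.

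Together the 10 genes took between 0.508% and 0.549% of all counts in WT libraries and between 1.15% and 1.21% in those labelled cKO. Levels below are in CPM, counts divided by the TMM-scaled library total and scaled to 1000000. *Lyz2* alone rose from between 0.0919% and 0.101% of the counts to between 0.444% and 0.464%. These are bulk libraries, in which fewer cells of a type and less RNA per cell cannot be told apart. Per kilobase of the deposited gene length, the order of mean levels was *Lyz2*, *Saa3*, *Hp*, *Lcn2*, *Ptx3*, *Saa1*, *Slpi*, *Saa2*, *Lyz1* and *Orm1* in both groups, with *Lyz1* and *Orm1* overlapping in WT. With the length of the canonical transcript instead, *Saa3* and *Lcn2* came first and *Lyz2* was the fourth in WT and the third in the libraries labelled cKO, because its canonical transcript is 2995 bases against 1316 in the table, so the order among the abundant genes rests on the length used.

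**Figure D1:**
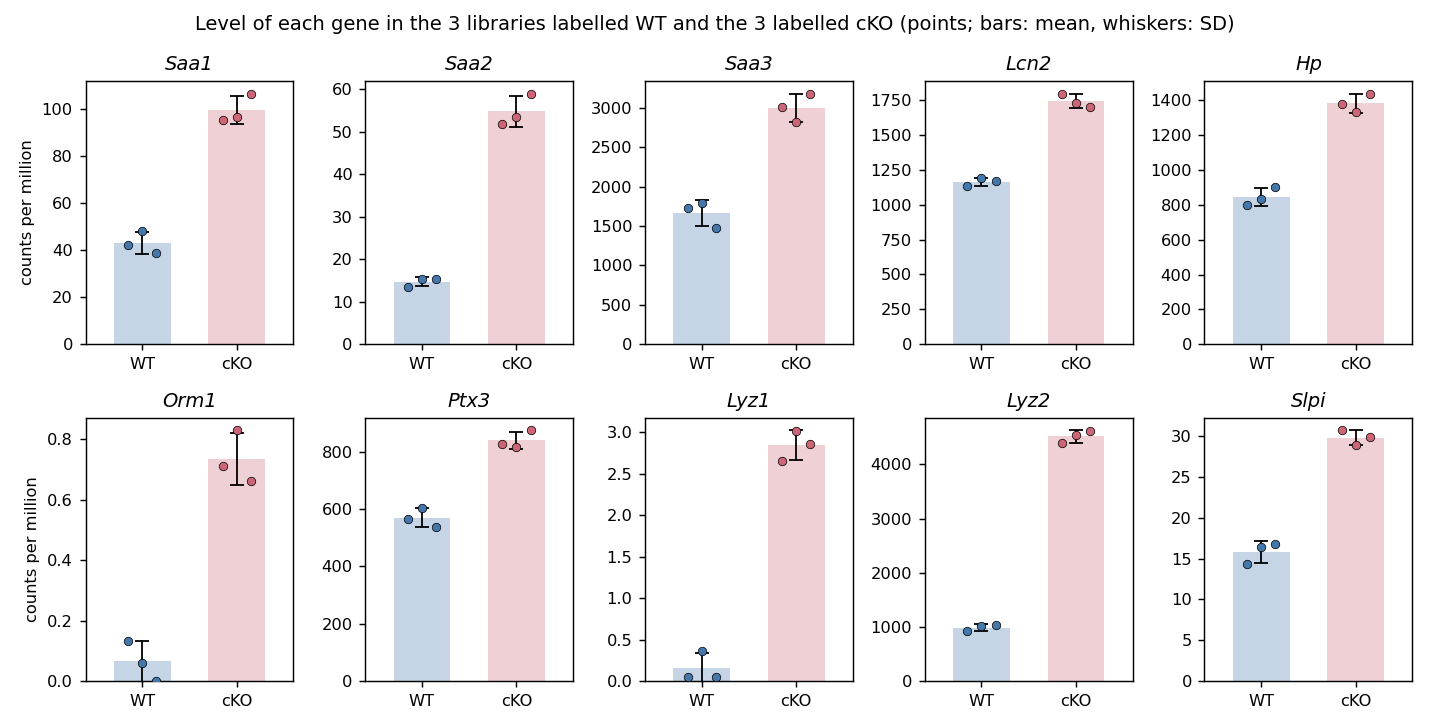
Level in CPM (vertical axis, from 0, a separate scale for each gene) of the 10 genes in the 3 libraries labelled WT (blue) and the 3 labelled cKO (red); points are libraries, bars the mean and whiskers the SD. In every panel the lowest red point lies above the highest blue point, with *Lyz2* at 921 to 1030 against 4391 to 4613 CPM.

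Both lysozymes were higher in the libraries labelled cKO. *Lyz2* (ENSMUSG00000069516, chr10:117113236-117118226, GRCm39, minus strand), the lysozyme of macrophages and other myeloid cells, had 41470, 49921 and 39986 counts in WT and 184783, 180922 and 209542 in the libraries labelled cKO. Its level in CPM was 986 ± 57.1 (SD, n = 3) in WT and 4518 ± 114 in the libraries labelled cKO, 4.58 times as high, with a log2 fold change of 2.20 (SE 0.0398; adjusted p = 5.71e-17, edgeR). The spread within each group was small beside this difference. *Lyz2* ranked 25th among all genes of the table by mean CPM, and 2.78% of the tested genes had a larger log2 fold change.

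*Lyz1* (ENSMUSG00000069515, chr10:117123702-117128773, minus strand), the lysozyme of intestinal Paneth cells, lies beside it on chromosome 10. Its counts were 2, 18 and 2 in WT and 112, 120 and 130 in the libraries labelled cKO, so it stayed a rare transcript in both groups. The mean rose from 0.153 ± 0.182 to 2.85 ± 0.178 CPM (SD, n = 3 each), with a log2 fold change of 4.12 (SE 0.487, adjusted p = 1.95e-06, edgeR), the highest of the 10. Its order against *Orm1* (3.40, SE 0.692) is not settled, since their ranges with 1 library left out overlap. WT replicate 2 held most of the WT counts, and without it the log2 fold change was 5.80, against 3.66 without WT replicate 1 and 3.74 without WT replicate 3. *Lyz1* made up 0.00482%, 0.036% and 0.005% of the counts of both lysozymes in WT and 0.0606%, 0.0663% and 0.062% in the libraries labelled cKO.

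The transcripts of these neighbours are alike, which bears on the small counts of *Lyz1*. The canonical transcripts were identical at 96% of 1268 aligned bases, the longest shared stretch was 118 bases, and no window of 150 bases, the read length, was shared. Within these transcripts a read of full length therefore has at least 1 difference to tell them apart, but how the counting treated reads that match both genes is not given in the sources used here (the labels and the methods differ on the counter), and *Lyz1* counts are uncertain for that reason.

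The serum amyloids rose to unequal degrees. *Saa3* (ENSMUSG00000040026, chr7:46361422-46365124, minus strand), the form best known outside the liver in the mouse, was by far the most abundant of the 3, with 77540, 88732 and 57294 counts in WT and 126758, 111890 and 144180 in the libraries labelled cKO. Its level was 1662 ± 165 CPM in WT and 3000 ± 180 in the libraries labelled cKO (SD, n = 3 each), a log2 fold change of 0.85 (SE 0.0562; adjusted p = 9.9e-10, edgeR). WT replicate 3 was the lowest library and the groups did not overlap.

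*Saa1* and *Saa2*, the forms the liver secretes into blood, were rarer and rose further. *Saa1* (ENSMUSG00000074115, chr7:46389921-46392404, minus strand) had 1896, 2391 and 1504 counts in WT and 4006, 3844 and 4836 in the libraries labelled cKO. That is 43.0 ± 4.78 against 99.4 ± 6.12 CPM (SD, n = 3 each), a log2 fold change of 1.21 (SE 0.0696; adjusted p = 1.57e-10, edgeR). For *Saa2* (ENSMUSG00000057465, chr7:46401214-46403737, plus strand) the counts were 604, 761 and 595 in WT and 2181, 2126 and 2677 in the libraries labelled cKO. Its level went from 14.7 ± 1.10 to 54.7 ± 3.72 CPM (SD, n = 3 each), a log2 fold change of 1.90 (SE 0.0746; adjusted p = 8.19e-13, edgeR).

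The balance among the amyloids therefore differed between the groups. *Saa2* made up 24.2%, 24.1% and 28.3% of the counts of *Saa1* and *Saa2* in WT, and 35.3%, 35.6% and 35.6% in the libraries labelled cKO. *Saa3* made up 96.9%, 96.6% and 96.5% of the counts of all 3 in WT and 95.3%, 94.9% and 95.0% in the libraries labelled cKO. These shares were computed after the fold changes were known and are given without a test. The canonical transcripts of *Saa1* and *Saa2* were identical at 94.8% of 649 aligned bases with no shared window of 150 bases and a longest shared stretch of 76. Within these transcripts a read of full length therefore has at least 1 difference to tell them apart. How reads that match both genes were counted is not known, so the shares of *Saa2* are uncertain. *Saa1* and *Saa3* were identical at 74.3%. *Saa4*, the constitutively made relative, did not follow, with 130, 114 and 106 counts in WT and 80, 58 and 104 in the libraries labelled cKO (log2 fold change -0.48, SE 0.24; adjusted p = 0.13, edgeR).

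**Figure D2:**
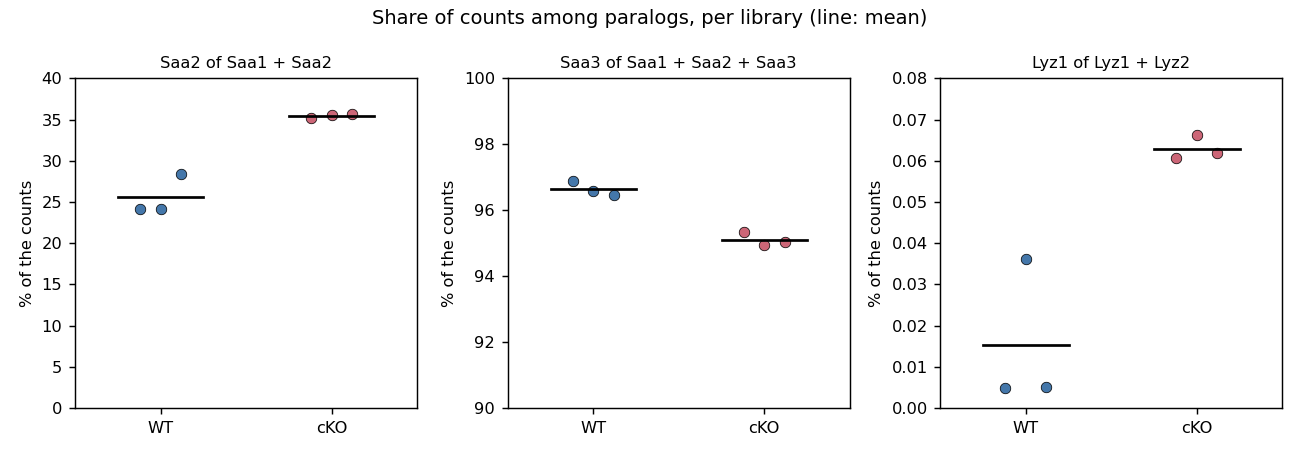
Share of counts (%, vertical axes, the middle one not starting at 0) taken by *Saa2* among *Saa1* and *Saa2*, by *Saa3* among the 3 amyloids and by *Lyz1* among both lysozymes, one point per library and a line at the mean. The red points (labelled cKO) lie above the blue points (WT) for *Saa2* and *Lyz1* and below them for *Saa3*.

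*Lcn2* and *Hp* were abundant in both groups. *Lcn2* (ENSMUSG00000026822, chr2:32274645-32278264, minus strand) had 51030, 59111 and 45324 counts in WT and 75554, 68834 and 77067 in the libraries labelled cKO. The level was 1164 ± 28.9 CPM in WT and 1741 ± 50.2 in the libraries labelled cKO (SD, n = 3 each), a log2 fold change of 0.58 (SE 0.0339; adjusted p = 1.87e-10, edgeR). *Hp* (ENSMUSG00000031722, chr8:110301760-110305804, minus strand) had 36085, 41348 and 34982 counts in WT and 58037, 52933 and 65379 in the libraries labelled cKO, neither gene overlapping between groups. The level of *Hp* was 845 ± 50.9 against 1383 ± 54.2 CPM (SD, n = 3 each), a log2 fold change of 0.71 (SE 0.0429; adjusted p = 2.91e-10, edgeR).

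*Ptx3* (ENSMUSG00000027832, chr3:66127331-66133226, plus strand) had the smallest log2 fold change of the 10, within 1 standard error of that of *Lcn2*. Its counts were 25497, 30050 and 20883 in WT and 34814, 32565 and 39783 in the libraries labelled cKO. They correspond to 570 ± 33.9 and 841 ± 30.7 CPM (SD, n = 3 each), a log2 fold change of 0.56 (SE 0.0436; adjusted p = 9.22e-09, edgeR). *Veph1* overlaps it on the opposite strand and had 27 to 43 counts per library, against at least 20883 for *Ptx3*. For *Ptx3* 14.5% and for *Lcn2* 14.1% of the tested genes had a larger log2 fold change.

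*Slpi* (ENSMUSG00000017002, chr2:164195990-164231015, minus strand), the protease inhibitor, had 643, 815 and 653 counts in WT and 1292, 1150 and 1357 in the libraries labelled cKO. Its level was 15.8 ± 1.36 against 29.8 ± 0.893 CPM (SD, n = 3 each), a log2 fold change of 0.91 (SE 0.0804; adjusted p = 4.88e-08, edgeR). *Orm1* (ENSMUSG00000039196, chr4:63262797-63266400, plus strand) was close to the limit of detection in WT, with 6, 3 and 0 counts against 30, 33 and 30. The mean was 0.0646 ± 0.0667 CPM in WT and 0.734 ± 0.0867 in the libraries labelled cKO (SD, n = 3 each), a log2 fold change of 3.40 (SE 0.692; adjusted p = 0.000595, edgeR). It was 4.33 without WT replicate 1 and 2.90 without WT replicate 3. The related genes *Orm2* and *Orm3* had 2 to 8 and 0 to 6 counts per library and were not tested.

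**Figure D3:**
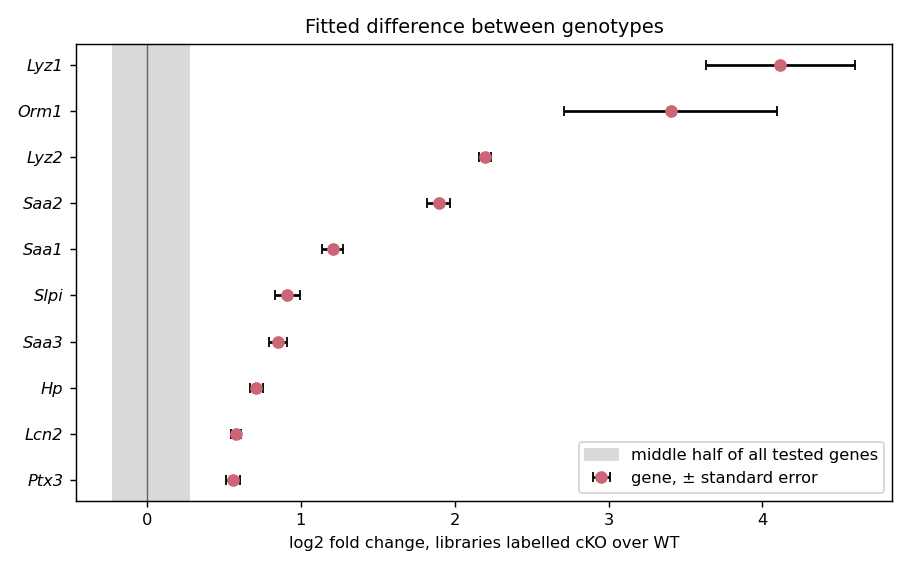
Log2 fold change of each gene (horizontal axis, libraries labelled cKO over WT), points with whiskers of 1 standard error, sorted by size; the gray band spans the middle 50% of all tested genes, from -0.22 to 0.27. All 10 points lie to the right of the band, from 0.56 for *Ptx3* to 4.12 for *Lyz1*, and the widest whiskers belong to the rare transcripts *Orm1* and *Lyz1*.

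Within a group, the 8 genes other than *Orm1* and *Lyz1* deviated from the group mean by between -0.17 and 0.17 on the scale of log2(CPM + 0.5). *Lyz1* spread more in WT, from -0.23 to 0.44 on that scale (0.0444 to 0.363 CPM). *Orm1* lay between -0.17 and 0.17 in WT (0 to 0.133 CPM), but the 0.5 added there exceeds its CPM. *Saa1*, *Saa3* and *Ptx3* shared a pattern, each with its highest WT level in replicate 2, its lowest in WT replicate 3, and its highest level among the libraries labelled cKO in replicate 3. *Lcn2* went otherwise, with its highest level among the libraries labelled cKO in replicate 1. Over the 6 libraries the genes most like *Lyz1* in log2(CPM + 0.5) were *4930430E12Rik* (Pearson r = 0.9998), *Ero1b* (0.9992) and *Klhl6* (0.9991), and those most like *Lyz2* were *Ctsc*, *Adgre1* and *Irf5* (0.9999 each). Of 13867 genes compared, 148 exceeded 0.99 with *Lyz1* and 648 with *Lyz2*, since any gene with a clear difference between the groups and a small spread scores high, so the likeness is only a description of these 6 points.

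Other acute-phase proteins were a list of 25 genes, of which 12 were too low to test. Of the 13 tested, 8 were higher in the libraries labelled cKO, 2 were lower and 3 were not called, with a median log2 fold change of 0.69. Among the higher genes were complement factor B, *Cfb*, at 1.44 (SE 0.21), the protease inhibitor *Serpina3n* at 0.93 (SE 0.06), the heme carrier *Hpx* at 0.91 (SE 0.28) and complement *C3* at 0.88 (SE 0.043), all on the log2 scale. *Hpx* rested on 39 to 103 counts per library and was no longer called without cKO replicate 3 (adjusted p = 0.0743, edgeR). *A2m*, a broad protease inhibitor, went the other way, with 139, 205 and 124 counts in WT and 0 in each library labelled cKO, at least 48.9-fold lower against a floor of 3 counts per library and at least 24.5-fold lower against 6. Fibronectin, *Fn1*, fell by 0.72 on the log2 scale. *Crp*, *Apcs*, *Fga*, *Fgg* and *Serpina1a*, typical products of liver, were at 0 in all 6 libraries.

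Antimicrobial genes of neutrophil granules and epithelia were scarce. Of 26 listed genes 9 were tested, of which 3 were higher, 3 lower and 3 not called. The higher genes were *Wfdc17*, a small secreted whey acidic protein known from macrophages (log2 fold change 2.14, SE 0.15), *S100a8*, a calcium-binding alarmin (1.61, SE 0.25), and the cathelicidin *Camp* (0.49, SE 0.18; adjusted p = 0.0403, edgeR), whose call was lost under 6 alternatives, with adjusted p between 0.0637 and 0.170. The lower genes were *Pglyrp1*, a peptidoglycan binding protein with 18, 25 and 25 counts in WT and 2, 0 and 0 in the libraries labelled cKO, *Prtn3*, which fell by 1.16, and *Rnase4*, which fell by 0.21 on the log2 scale. *S100a9*, the usual partner of *S100a8*, was among the 10 genes at 0 in every library. None of 7 other lysozyme-like genes passed the filter, and of 10 other whey acidic protein inhibitors in the table *Wfdc1* and *Wfdc12* were tested and neither was called, nor past an unadjusted p of 0.05 or by DESeq2 or limma-voom (adjusted p = 0.998 and 0.165, edgeR).

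Cytokines known to induce acute-phase genes, with their receptors, were all tested. Of 21 genes, 11 were higher in the libraries labelled cKO, 3 lower and 7 not called, with a median log2 fold change of 0.18. *Il6* had 10675, 11601 and 10875 counts in WT and 25609, 21770 and 27890 in the libraries labelled cKO, a log2 fold change of 1.24 (SE 0.061), and *Tnf* rose by 2.47 (SE 0.23) at 38 to 263 counts per library. *Il1b* rose by 2.55 (SE 0.69) from 8, 0 and 26 counts to 43, 53 and 109, a call that was lost with DESeq2 (adjusted p = 0.171), with robust estimation in edgeR (0.0863) and without cKO replicate 3 (0.0694). The interleukin-1 receptor antagonist *Il1rn* rose by 2.30 (SE 0.048) and the LPS co-receptor *Cd14* by 1.73 (SE 0.052). *Il6st*, the shared signaling chain of interleukin-6 family receptors, rose by only 0.18, and the lower genes were *Il1rap* (-0.42), *Il17rc* (-0.33) and *Osmr* (-0.17).

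Of 18 transcription factors and feedback genes, 15 were tested, 8 were higher and 0 lower (1 was lower at an unadjusted p below 0.05 in edgeR, and 0 by DESeq2 and limma-voom), with a median log2 fold change of 0.17. *Spi1*, the PU.1 gene of the myeloid lineage, rose by 2.99 (SE 0.12) and *Cebpa*, a C/EBP factor, by 1.73 (SE 0.067). *Cebpb*, also a C/EBP factor, rose by 0.58 (SE 0.05). *Cebpd*, another C/EBP factor of the acute-phase response, had a log2 fold change of 0.05 (SE 0.047; adjusted p = 0.409, edgeR), and *Stat3*, the main transducer of interleukin-6, one of -0.04 (SE 0.048; adjusted p = 0.609, edgeR). Among NF-κB subunits *Relb* rose by 0.34 (SE 0.069). *Nfkb1* (0.04), *Nfkb2* (0.13) and *Rela* (-0.12) were not called (adjusted p = 0.576, 0.0666 and 0.106, edgeR).

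Receptors and binding partners of the 10 proteins moved in both directions. Of 19 genes 17 were tested, 8 being higher, 5 lower and 4 not called. The formyl peptide receptor *Fpr2*, which binds serum amyloid, rose by 2.50 (SE 0.28), the scavenger receptor *Cd36* by 2.55 (SE 0.05), and *C1qa*, whose product binds pentraxin 3, by 3.66 (SE 0.075). *Mmp9*, which forms a complex with lipocalin-2, went from 944, 929 and 1007 counts to 148, 94 and 149 and fell by 2.83 (SE 0.15). *Lrp2*, a lipocalin-2 receptor, fell by 3.63 (SE 0.45). It was rare in both groups, with 91, 93 and 93 counts in WT and 11, 8 and 2 in the libraries labelled cKO. The other lipocalin-2 receptor, *Slc22a17*, had a log2 fold change of 0.04 (SE 0.11; adjusted p = 0.834, edgeR).

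Markers of other cells moved with these genes. All 18 tested of 20 macrophage markers were higher in the libraries labelled cKO, their median log2 fold change being 3.08, at a summed level between 452 and 512 CPM in WT and between 3336 and 3487 CPM in those labelled cKO, and 3 genes, *Cd14*, *C1qa* and the untested *Cd163*, stand in this list and in those above. Neutrophil markers summed to between 9.86 and 12.9 CPM in WT and between 32.0 and 36.0 CPM in those labelled cKO. Of 13 markers 4 were tested, *S100a8*, *Camp*, *Mmp8* and *Csf3r*, and all 4 were higher. *S100a8* and *Camp* are the genes already counted as higher in the antimicrobial list. *Mmp8* went from a mean of 4.55 CPM in WT to 19.5 in the libraries labelled cKO. The defining *S100a9* and *Retnlg* were at 0 and *Ly6g* at 0 to 2 counts. Adipocyte markers summed to 21.7 to 24.6 CPM in WT and 40.5 to 49.1 CPM in those labelled cKO. Of 7 markers 3 were tested and higher, *Lpl*, *Fabp4* and *Pparg*. *Plin1*, *Cfd* and *Cidec* were at 0, and *Adipoq*, at 0 to 8 counts per library, was not tested. The part of macrophages, neutrophils or adipocytes in the rise of the 10 genes was not tested. Hepatocyte markers were near 0, with *Ttr*, *Ahsg* and *Serpina1c* at 0 in all 6 libraries and sums between 0.887 and 1.11 CPM in WT and between 0.452 and 0.704 CPM in those labelled cKO.

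Osteoclast, osteoblast and stromal lists showed no single direction. Of tested genes, 2 osteoclast markers were higher and 2 lower, 2 osteoblast markers were higher and 3 lower, and 4 stromal and fibroblast markers were higher and 5 lower. Among chondrocyte markers 4 were higher and 1 lower, and among endothelial markers 1 was higher and 4 were lower. *Pdpn*, the only osteocyte marker tested, fell by 0.28 on the log2 scale.

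**Figure D4:**
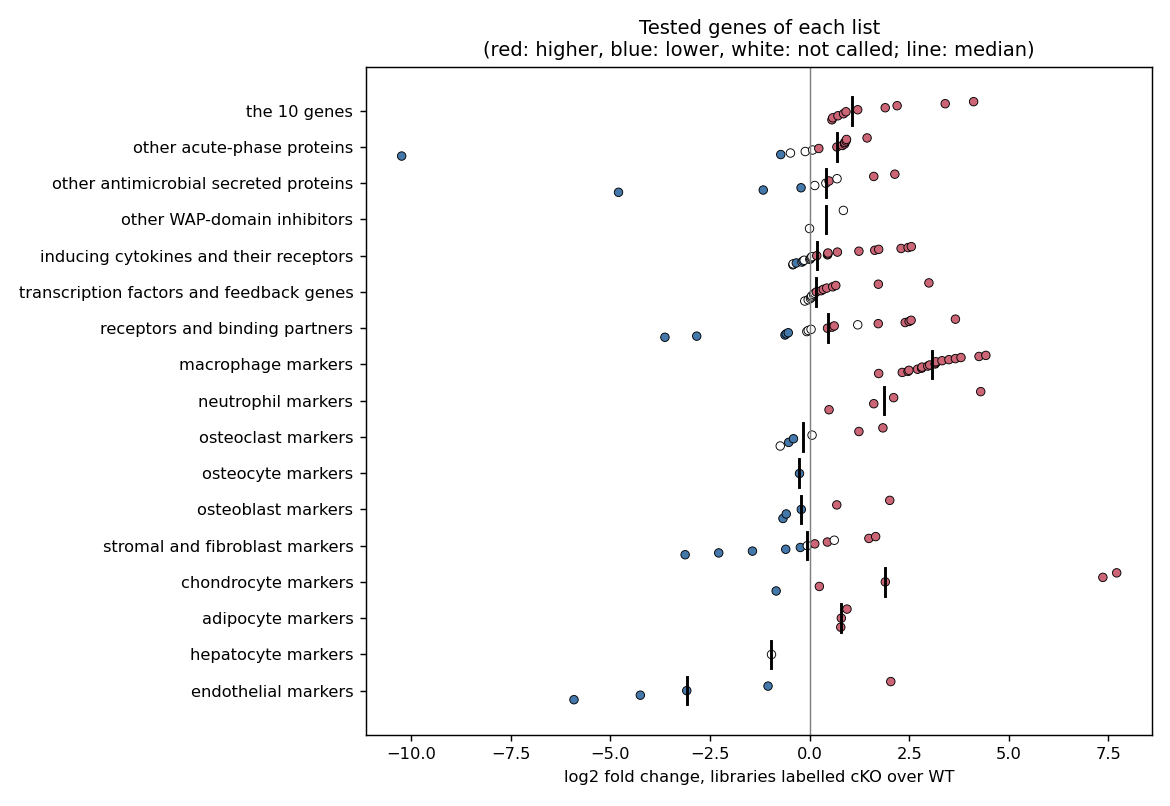
Log2 fold change (horizontal axis, libraries labelled cKO over WT) of each tested gene of each list, one row per list, colored by call (red higher, blue lower, white not called), with a line at the list's median. The rows of the 10 genes and of the macrophage, neutrophil and adipocyte markers hold red points alone, with medians of 1.06 for the 10 genes and 3.08 for the macrophage markers, whereas most pathway rows hold points on both sides of 0. The point near -10 is *A2m*, at 0 counts in the libraries labelled cKO, whose position depends on the prior count of the fit. The same holds for *Col9a1* at 7.71 in the chondrocyte row, with 0 counts in the WT libraries.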

How the data were processed

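RNA sequencing libraries, 3 labelled WT and 3 labelled cKO, were analysed, grouped by the sample labels. Per the labels and the methods, the authors aligned 150 bp paired reads with HISAT2 2.0.5 to GRCm39 and deposited raw counts per gene from featureCounts (1.55.0-p3 per the labels), without normalization. The methods give another featureCounts version and also name RSEM, so how reads shared by similar genes were assigned is not known. The strand setting is not given in the sources used here. Between 63.4% and 65.7% of the counts from 1 to 10 were even, as when both mates are counted. Genes were then tested on the deposited counts in edgeR 4.0.16 under R 4.3.3 (filterByExpr, TMM, glmQLFit, glmQLFTest, genotype as the only term), with Benjamini-Hochberg adjustment over 17146 genes and a limit of 0.05. The SE is the absolute log2 coefficient divided by the square root of F. DESeq2 1.42.0, limma-voom (limma 3.58.1) and other normalizations, filters and library sets were the alternatives. Floors cover counting error only.

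Gene lists were described by counts and medians, without a set test. Named were *Gsdmd*, the 10 genes, up to 4 called genes per pathway list with the largest change plus genes needed to read a list, and the 3 most correlated genes. A gene that this rule names is not reported here. The 10 genes and all lists were chosen with earlier results of these data known. The motifs, both promoter windows, the transcript lengths and the shares among paralogs were chosen after the data were seen. The script was tested on simulated data.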

Additional observations from a re-analysis of the deposited data

How the results depend on the processing

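The number of the 10 genes called higher was 10 under every other test, normalization and left-out library (10 to 10), 8 with at least 10 counts in every library, where *Orm1* and *Lyz1* are not tested, and 5 when a log2 fold change of at least 1 was added. *Orm1* and *Lyz1* are among these 5. The number called lower was 0 throughout (0 to 0 with a library left out). The number of genes called among all tested was 6730, and 5738 to 6782 with 1 library left out. Same-numbered libraries did not deviate together (correlations of -0.00836, -0.0127 and -0.0244). A shared effect small beside the spread between libraries would not show in these values, so they cannot exclude a pairing by number. With the replicate number as a block 6396 genes, 10 of the 10 higher and 0 lower were called. *Lyz1* ranged from 3.66 to 5.80 and *Orm1* from 2.90 to 4.33 on the log2 scale, and the largest adjusted p of any of the 10 under any alternative was 0.00569, for *Orm1* in edgeR without cKO replicate 2. Other scalings moved the median of all genes by less than 0.1. Besides *Camp*, *Hpx* and *Il1b*, *Sp7* lost its call under 6 alternatives. Over the same 8 genes, the other start and build, tried after the data were seen, gave κB letters in 2 genes in place of 0, ETS in 3 in place of 1 and C/EBP in 6 in place of 7. Counts of 0 to 18 limit *Orm1* and *Lyz1* in WT.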
